A study of Mus musculus with 4 samples.

Results

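The genes of oxidative phosphorylation were examined in CD11b+Ly6g+ myeloid-derived suppressor cells (MDSCs) sorted from mouse lung. They were chosen by name: protein-coding genes whose symbol starts with mt-, and those named as subunits of NADH dehydrogenase (Nduf), succinate dehydrogenase (Sdh), the cytochrome bc1 complex (Uqcr), cytochrome c oxidase (Cox) or ATP synthase (Atp5). This rule found 96 genes of the 54532 in the count table, of which 13 are encoded in the mitochondrial genome and 83 in the nucleus. Both rows of Atp5o are among them, so they carry 95 symbols. A minimum of 10 counts in 1 or more libraries was met by 90 of the 96, namely 12 mitochondrial-encoded and 78 nuclear-encoded genes. The other 6 were mt-Atp8, Ndufa4l2, Cox8b, Cox7b2, Cox8c and the second Atp5o row, and the last 3 had 0 counts in all 4 libraries.

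The 4 groups were C57BL/6 mice aged 6 to 8 weeks that carried a pre-metastatic niche (PMN) model. All of them received MCM, medium conditioned by B16F10 mouse melanoma cells, into the peritoneum at 300 μl per mouse on 10 consecutive days, and an intravenous injection of 100000 B16F10 cells on day 7. Ctrl mice had no peptide, and the others were given TP5, sFD17 or FR17 under the skin at 40 μM/kg/day beginning on day 3. TP5 is thymopentin. In FR17 it is joined to a self-assembling peptide. sFD17, the control for assembly, has a scrambled sequence in the place of TP5. Lungs were taken on day 10, and each group gave 1 mRNA library from the pooled cells of 10 to 12 mice. No comparison therefore has a replicate check, no p-value is given, and the 95% intervals below cover counting error only. Totals ran from 15543071 counts in sFD17 to 19638228 in FR17. The sorting markers Itgam, which encodes CD11b, and Ly6g were counted in every library, at 302 to 433 and 73.1 to 111 CPM.

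The inner mitochondrial membrane carries 5 complexes. Complexes I and II pass electrons from NADH and succinate to ubiquinone, complex III passes them on to cytochrome c, complex IV hands them to oxygen, and complex V uses the proton gradient built by I, III and IV to make ATP. Complex II is made of nuclear-encoded proteins, while each of the others joins products of both genomes, and neutrophils, which the Ly6g marker labels, are known for relying largely on glycolysis. The genes held 7 mitochondrial-encoded and 37 nuclear-encoded members of complex I, 4 nuclear-encoded of complex II, 1 and 8 of complex III, 3 and 16 of complex IV, and 2 and 18 of complex V.

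Levels of the mitochondrial-encoded genes fell into 2 ranges that followed their order on the mitochondrial genome. Per length, mt-Co1, the catalytic subunit of complex IV, was highest in each library, and mt-Cytb, the cytochrome b of complex III, was next. The 6 neighbouring genes from mt-Co2 to mt-Nd4l were far lower, although they lie between mt-Co1 and mt-Nd4 and are transcribed from the same strand as both. In Ctrl, mt-Co1 had 39193 counts and mt-Co2, whose product receives the electrons from cytochrome c, had 86. Per kilobase the TMM-scaled level was 1502 CPM for mt-Co1 and 7.44 CPM for mt-Co2 in Ctrl. Together these 6 genes gave from 0.302% of the mitochondrial-encoded counts in Ctrl to 0.397% in FR17.

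Sequences are shown here for genes in this low range, and for their neighbour mt-Co1, beside near-identical stretches of chromosome 1, because both could receive the same reads. GENCODE M21 annotates copies of mt-Co2, mt-Atp6, mt-Co3, mt-Nd3, mt-Nd4l, most of mt-Nd4 and part of mt-Co1 as separate genes there. Aligned without gaps, the copy Gm28661 (GRCm38, chr1:24614885-24615565, minus strand) matched mt-Co2 at all 681 bases, Gm10925 (chr1:24613974-24614651, minus strand) matched mt-Atp6 at all 678, and Gm28437 (chr1:24613189-24613971, minus strand) matched mt-Co3 at all 783. Gm28438 differed from mt-Nd3 at 1 of 345 bases, and Gm29216 from mt-Co1 at 6 of 492. In each sequence below 60 bases of transcript are printed, and capitals mark the bases that differ within a pair. The mt-Co2 stretch, bases 311 to 370 of the transcript, reads the same in Gm28661. The mt-Nd3 pair starts at base 1, and the mt-Co1 pair covers bases 1054 to 1113, with its 6 differences at the start.
mt-Co2 and Gm28661: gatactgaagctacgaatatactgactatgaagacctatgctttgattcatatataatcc
mt-Nd3: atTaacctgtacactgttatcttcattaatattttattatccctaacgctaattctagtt
Gm28438: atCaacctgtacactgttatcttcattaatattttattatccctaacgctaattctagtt
mt-Co1: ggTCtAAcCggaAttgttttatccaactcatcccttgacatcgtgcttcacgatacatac
Gm29216: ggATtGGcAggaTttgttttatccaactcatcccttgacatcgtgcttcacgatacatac

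The share of each transcript's 50-base words that also occur in another gene's transcript put a number on this. It was 100% for mt-Co2, 99.9% for mt-Co3, 99.5% for mt-Atp6, 98.8% for mt-Nd4l and 98.0% for mt-Nd3. It was 62.2% for mt-Nd4 and 51.1% for mt-Co1, 8.19% for mt-Nd2, 7.61% for mt-Nd5, and 0% for mt-Nd1, mt-Cytb and mt-Nd6. Counts of the first 5 genes are thus uncertain, and those of mt-Co1 and mt-Nd4 are so in part. Whether shared reads set these low counts was not tested, and mt-Atp8, with 1, 1, 2 and 2 counts in Ctrl, TP5, sFD17 and FR17, has no annotated copy among the transcripts although it lies in the same stretch. Only annotated transcripts were searched, and the bases of chromosome 1 between Gm10925 and Gm28661 were not, so an unannotated copy of mt-Atp8 would be missed. The copies themselves had few counts, for example 43, 68, 42 and 125 for Gm28661 in that order of libraries.

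**Figure D1:**
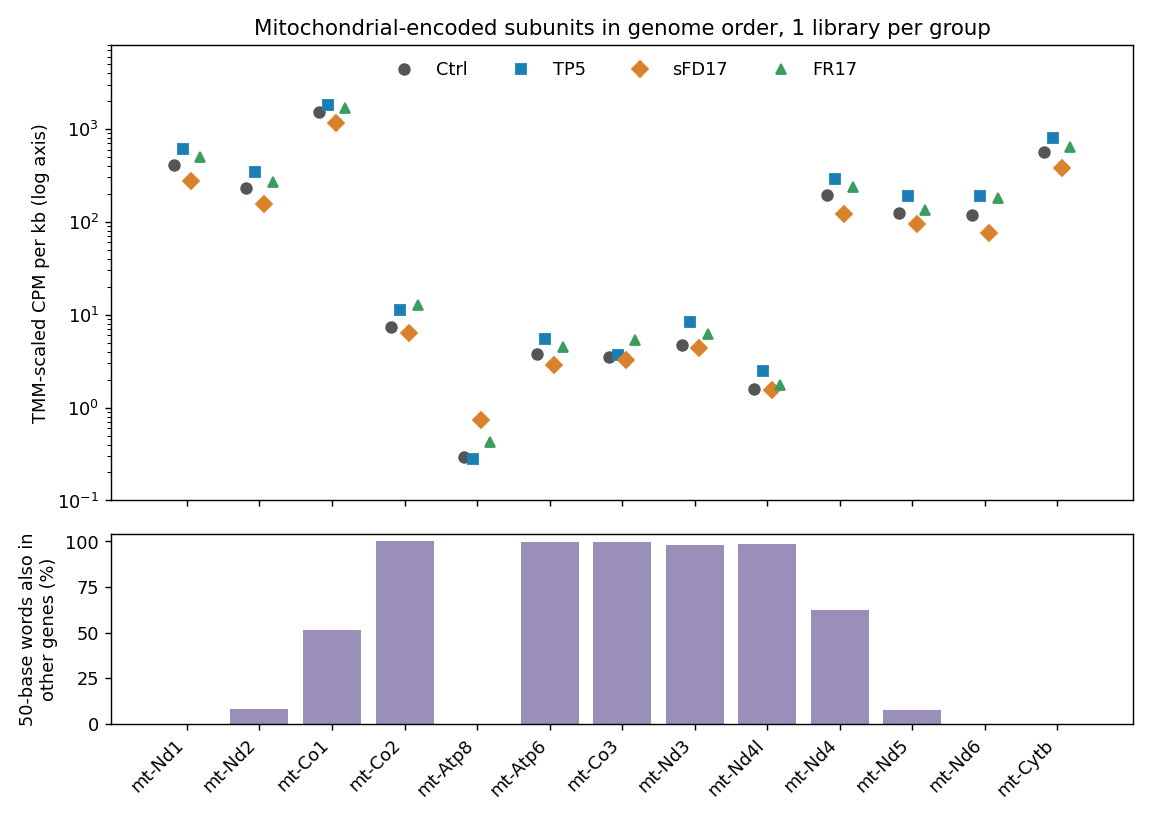
The upper panel plots the TMM-scaled level per kilobase of the 13 mitochondrial-encoded genes in their order along the mitochondrial genome, on a log axis, with 1 point per library, and the lower panel plots the percentage of each gene's 50-base words found in transcripts of other genes. The 6 genes from mt-Co2 to mt-Nd4l lie far below their neighbours, and 5 of them have 98.0% or more of their words elsewhere, while mt-Atp8 has 0% among annotated transcripts.

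The largest difference between the genomes was in TP5, where the mitochondrial-encoded genes stood higher and the nuclear-encoded ones close to Ctrl. As a share of all counts, the 13 mitochondrial-encoded genes gave 0.410% in Ctrl (95% Wilson interval 0.407 to 0.413), 0.563% in TP5 (0.559 to 0.566), 0.256% in sFD17 (0.254 to 0.259) and 0.555% in FR17 (0.552 to 0.558). The nuclear-encoded genes gave 0.375%, 0.411%, 0.277% and 0.5003% in the same order. Both kinds were lowest in sFD17, and as shares of the totals TP5 and FR17 were closer in the mitochondrial-encoded than in the nuclear-encoded genes. This depends on the scaling, since with TMM, which corrects totals for a few dominant genes, the sums in FR17 were 0.862 times (mitochondrial-encoded) and 1.06 times (nuclear-encoded) those in TP5.

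The ratio of the 2 sums needs no scaling between libraries. It was 1.09 in Ctrl (1.08 to 1.11), 1.37 in TP5 (1.36 to 1.38), 0.926 in sFD17 (0.913 to 0.939) and 1.11 in FR17 (1.10 to 1.12). Divided by the Ctrl ratio, that of TP5 came to 1.25, that of sFD17 to 0.847 and that of FR17 to 1.01. mt-Co1 alone held from 50.7% of the mitochondrial-encoded counts in TP5 to 58.7% in sFD17. Without mt-Co1 and without Atp5b, the most abundant nuclear-encoded gene, which encodes the catalytic subunit of ATP synthase, the ratio was 0.534 in Ctrl, then 0.748 (TP5), 0.425 (sFD17) and 0.562 (FR17), with the libraries in the same order. Fewer cells of a type and less RNA per cell cannot be told apart in such pooled libraries.

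**Figure D2:**
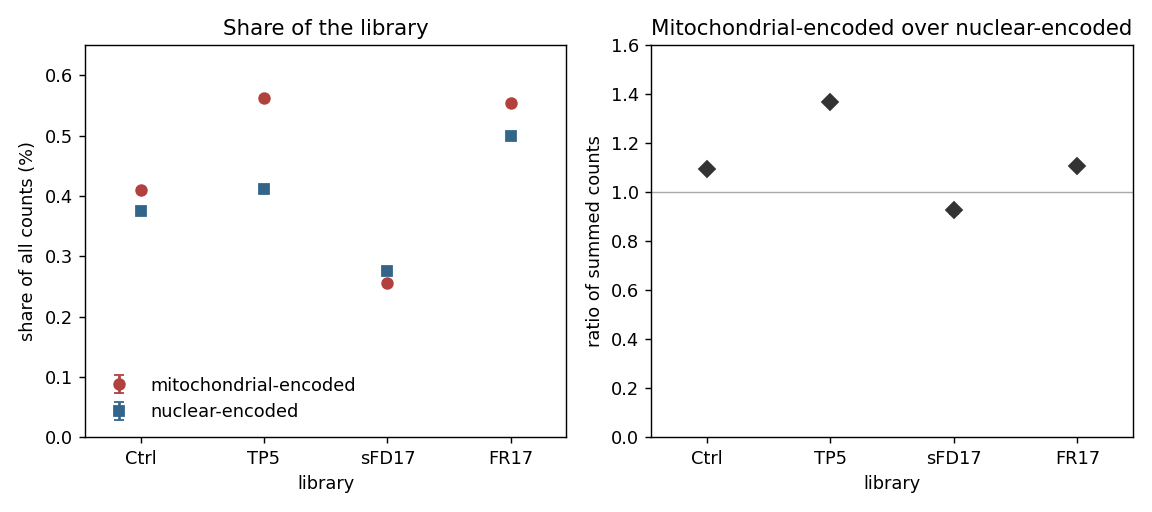
The left panel plots the percentage of all counts that fell on mitochondrial-encoded (circles) and nuclear-encoded genes (squares) in each library, and the right panel plots the ratio of the 2 sums of counts, with 95% intervals of the counts that are about as small as the symbols. The ratio is highest in TP5, at 1.37, and is under 1 in sFD17 alone, at 0.926.

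Differences of single genes were computed as log2 fold changes with TMM scaling, and a gene was counted as past 1.5-fold in either direction. In TP5 against Ctrl, the 12 mitochondrial-encoded genes that passed the filter had a median log2 fold change of 0.58. One of the 12, mt-Nd4l, with 8, 13, 6 and 12 counts, reached 10 counts in TP5 and FR17 alone, so directions and calls are counted over the other 11, each of which was higher in TP5. The 78 nuclear-encoded genes had a median of 0.08, with 57 higher and 21 lower, and the median over all 16369 genes was 0.00. Past 1.5-fold were 6 of the 11 mitochondrial-encoded and 2 of the 78 nuclear-encoded genes upward, and 1 nuclear-encoded gene downward. Of all genes tested 8.98% were past 1.5-fold higher and 11.8% lower, so the 8 upward genes of 90 (8.89%) were near that share, while 6 of 11 among the mitochondrial-encoded ones (54.5%) were above it. With library totals in place of TMM these were 9 (10.0%) and 7 of 11, against 9.88% of all genes higher and 11.1% lower. Here and below, the 11 lie on a single genome and need not vary separately from each other. mt-Co2 and mt-Nd3, whose counts are uncertain, are among those past 1.5-fold.

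Genes of complex I led the mitochondrial-encoded difference in TP5. mt-Nd1, a membrane subunit of complex I, had 6529 counts in Ctrl, 10206 in TP5, 3436 in sFD17 and 10982 in FR17. Its log2 fold change in TP5 was 0.59 (0.55 to 0.64). mt-Nd6, the only gene of the 13 on the opposite strand of the mitochondrial genome, had 1030, 1711, 523 and 2175 counts, and 0.68 in TP5 (0.57 to 0.79). The 5 well-counted mitochondrial-encoded genes of complex I, namely mt-Nd1, mt-Nd2, mt-Nd4, mt-Nd5 and mt-Nd6, ranged from 0.58 to 0.68 in TP5, and their nuclear-encoded partners had a median of 0.10. The intervals of the other two were wide, from 0.12 to 1.53 for mt-Nd3 and from -0.73 to 2.12 for mt-Nd4l.

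mt-Cytb, with 10857, 16049, 5672 and 16722 counts, stood at 0.51 in TP5 on the same scale (0.47 to 0.55). mt-Co1, with 39193, 48921, 23378 and 59053, had 0.27 (0.25 to 0.29), which lies below the intervals of mt-Nd1, mt-Nd6 and mt-Cytb. mt-Co3, another core subunit of complex IV, had 46, 51, 34 and 97 counts and 0.09 in TP5, with an interval from -0.51 to 0.70 that holds 0. mt-Co2 was at 0.59 in TP5 (0.20 to 1.00), within the range of those 5 genes but with a wide interval. The sum of mitochondrial-encoded counts over that of nuclear-encoded counts within complex I was 1.3 in Ctrl and 1.85 in TP5, within complex III 1.76 and 2.33, and within complex IV, where nearly all of the sum is mt-Co1, 3.06 and 3.50.

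In sFD17 against Ctrl, genes of both genomes were mostly lower. The median log2 fold change was -0.39 for the mitochondrial-encoded genes, each of the 11 lower, and -0.26 for the nuclear-encoded ones, of which 75 of 78 were lower, against -0.03 over all genes. Without Cox6a2 and Cox7a1, which missed 10 counts in sFD17, 73 of 76 nuclear-encoded genes were lower. Past 1.5-fold lower were 2 mitochondrial-encoded genes, mt-Nd4 and mt-Nd6, and 6 nuclear-encoded ones, or 5 without Cox6a2 and Cox7a1. None was past 1.5-fold higher. In all, 13.4% of genes were past 1.5-fold higher and 15.6% lower, a background not matched for counts. The 8 lower genes (8.89%, Cox7a1 among them) were fewer than that share would give. With library totals this turned, as 31 genes (34.4%) were past 1.5-fold lower against 24.5% of all genes, and 8.41% of all genes were higher. Without the filter on low counts 14 genes were past it, and the share of all genes in that setting is not given, here or below.

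Without the 6 genes from mt-Co2 to mt-Nd4l, a choice made after seeing the data, the median in sFD17 was -0.57, and the 7 genes ranged from -0.65 for mt-Nd4 to -0.39 for mt-Co1 and mt-Nd5. mt-Nd4, a proton-pumping subunit of complex I with 4471, 7021, 2228 and 7485 counts, was at -0.65 (-0.72 to -0.58), and mt-Cytb at -0.58 (-0.63 to -0.53). The interval of mt-Co1 was from -0.41 to -0.37, apart from both. For mt-Co2, with 86, 135, 58 and 202 counts, the value was -0.21 and its interval from -0.72 to 0.29 held 0.

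The scaling matters for sFD17 and FR17. With library totals alone in place of TMM, the median of all genes was -0.23 in sFD17 and 0.26 in FR17, and the medians in sFD17 became -0.61 for the mitochondrial-encoded and -0.47 for the nuclear-encoded genes. Both remained below that of all genes. In FR17 the medians became 0.52 and 0.45, both above that of all genes. The mitochondrial-encoded and nuclear-encoded medians had the same direction in each comparison under library totals and DESeq2 size factors.

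FR17 against Ctrl gave the opposite direction from sFD17 for most genes. The median was 0.28 for the mitochondrial-encoded genes (0.30 without mt-Nd4l), each of the 11 higher, and 0.20 for the nuclear-encoded ones, of which 72 were higher and 6 lower. Over all genes it was 0.02. Past 1.5-fold higher were 3 mitochondrial-encoded genes, mt-Nd6, mt-Co2 and mt-Co3, and 5 nuclear-encoded ones, and none was past 1.5-fold lower. These 8 of 90 (8.89%) compare with 11.0% of all genes higher and 11.7% lower. With library totals 16 (17.8%) were past 1.5-fold higher, against 22.1% of all genes higher and 6.26% lower.

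mt-Nd6 stood apart from the other well-counted mitochondrial-encoded genes in FR17. Its log2 fold change of 0.64 (0.53 to 0.74) lay above the interval of mt-Nd1, at 0.31 (0.26 to 0.35), of mt-Nd5, at 0.12 (0.06 to 0.18), and of mt-Cytb, at 0.18 (0.15 to 0.22). mt-Nd5 is also a membrane subunit of complex I, and its exon overlaps that of mt-Nd6 on the other strand by 14 bases. The sources used here do not say whether reads were counted by strand, so reads of mt-Nd6 cannot be told from those of the opposite strand. mt-Co2 was at 0.78 (0.42 to 1.17) and mt-Co3 at 0.61 (0.11 to 1.17) in FR17, both among the genes with a matching copy.

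**Figure D3:**
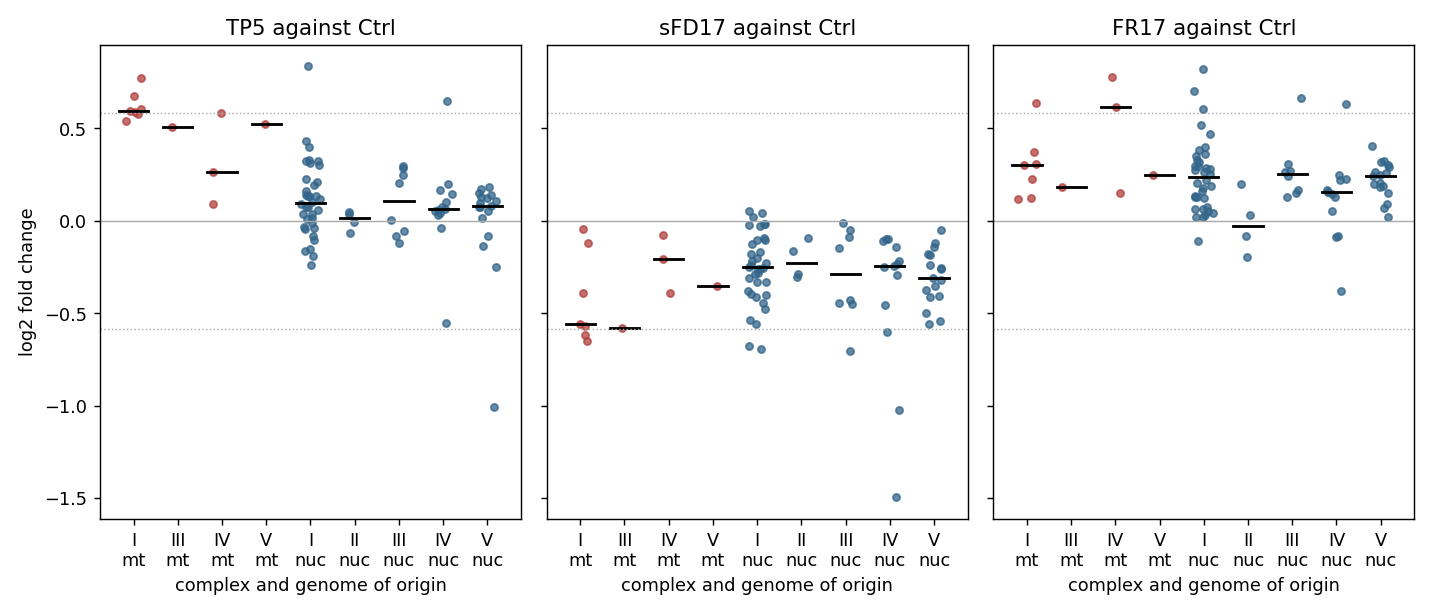
Each point is the log2 fold change of a gene against Ctrl, by complex and by genome (red, mt, mitochondrial-encoded; blue, nuc, nuclear-encoded), for the 12 and 78 genes with at least 10 counts in 1 or more libraries, with black bars for medians and dotted lines at 1.5-fold. In TP5 the red medians of complexes I, III and V lie above 0.5 and the blue ones near 0. Red III and V are 1 gene each, mt-Cytb and mt-Atp6, and the interval of mt-Atp6 in TP5, from -0.04 to 1.13, holds 0. In sFD17 nearly all points are below 0, and in FR17 complex II alone has a median below 0, which library totals turn to 0.22.

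Complex II, the complex without mitochondrial-encoded subunits, had the medians nearest to Ctrl in TP5 and FR17. Sdha, the flavoprotein that oxidises succinate, had 2372, 2449, 1653 and 3038 counts in Ctrl, TP5, sFD17 and FR17, and log2 fold changes of -0.01, -0.17 and -0.09 in TP5, sFD17 and FR17. Sdhb, the iron-sulfur subunit, had 959, 1030, 701 and 1333 counts and 0.05, -0.10 and 0.03. Sdhc and Sdhd, the membrane anchors, went apart in FR17, with 0.20 (0.05 to 0.36) for Sdhc and -0.20 (-0.30 to -0.09) for Sdhd. Over the 4 genes the medians were 0.02 (TP5), -0.23 (sFD17) and -0.03 (FR17), and none of the 4 was past 1.5-fold in any of the 6 comparisons. Of all genes, 8.98% to 24.7% were past 1.5-fold higher and 10.1% to 21.3% lower, so with 4 genes this says little. With library totals Sdhc was past it lower in sFD17 against TP5, where 29.7% of all genes were. Sdhb and Sdhc were past it higher in FR17 against sFD17, where 46.3% of all genes were. The same scaling turned the FR17 median to 0.22, where the nuclear-encoded medians of the other complexes were 0.40 to 0.498.

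The nuclear-encoded genes of the other complexes had medians close to each other. In TP5 the medians were 0.10 for complex I, 0.10 for complex III, 0.06 for complex IV and 0.08 for complex V. In sFD17 they were -0.25, -0.29, -0.25 and -0.31, and in FR17 0.24, 0.25, 0.15 and 0.24. In complexes III and V each of the 8 and 17 genes was lower in sFD17 and higher in FR17. Among the most abundant per kilobase in their complexes, averaged over the libraries, were Cox8a, Cox6a1 and Cox7a2l of complex IV at 258, 175 and 129 CPM, Atp5b and Atp5a1 of complex V at 88.1 and 78.5, Ndufa2 and Ndufa1 of complex I at 70.4 and 61.2, Sdhd at 57.7 and Uqcrh of complex III at 56.1.

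Cox8a, a small subunit of complex IV, was among the steadiest, with 2466, 2494, 1800 and 3165 counts and log2 fold changes of -0.04, -0.10 and -0.08 in TP5, sFD17 and FR17. Atp5b had 6102, 6900, 4316 and 9455 counts and 0.12, -0.14 and 0.19. Cox6a1, another complex IV subunit, had 0.10, -0.10 and 0.25, and Cox7a2l, which joins complexes III and IV into supercomplexes, 0.16, -0.29 and 0.16. None of these abundant genes reached 1.5-fold against Ctrl.

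The nuclear-encoded genes past 1.5-fold against Ctrl were mostly less abundant. Ndufa11, a membrane-arm subunit of complex I, had 112 counts in Ctrl, 209 in TP5, 86 in sFD17 and 249 in FR17. It was the highest of the nuclear-encoded genes in TP5, at 0.84 (0.51 to 1.19), and was at 0.70 (0.38 to 1.05) in FR17 and -0.03 (-0.45 to 0.39) in sFD17. TP5 and FR17 were thus high and Ctrl and sFD17 low. Cox6b2, the testis isoform of a complex IV subunit, followed with 54, 89, 14 and 115 counts, at 0.65 in TP5 (0.16 to 1.18), -1.495 in sFD17 (-2.56 to -0.72) and 0.63 in FR17 (0.17 to 1.14). The Cox6b2 value in sFD17 was the lowest of the 90.

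Uqcrb, the ubiquinone-binding subunit of complex III, had 348, 444, 166 and 752 counts, with -0.71 (-0.99 to -0.44) in sFD17 and 0.67 (0.48 to 0.86) in FR17. Of its 50-base words 43.4% occur in other transcripts, so its counts are uncertain in part. Ndufa5, of the matrix arm of complex I, had 120, 165, 58 and 290 counts, at -0.68 (-1.17 to -0.23) in sFD17 and 0.82 (0.52 to 1.15) in FR17. Both were lowest in sFD17 and highest in FR17. Ndufa4, which is named for complex I but was later assigned to complex IV, had 434, 495, 243 and 898 counts and was past 1.5-fold in FR17 only, at 0.60 (0.44 to 0.78). Ndufa12 was at -0.70 (-1.31 to -0.15) and Cox7b at -0.60 (-0.80 to -0.41) in sFD17. Cox7a1, the muscle isoform, had 15, 10, 5 and 19 counts, and its -1.03 in sFD17 had an interval from -3.04 to 0.30.

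The only gene past 1.5-fold lower in TP5 was Atp5s, a coupling factor of ATP synthase, with 31 counts in Ctrl, 15 in TP5, 16 in sFD17 and 51 in FR17. Its log2 fold change was -1.01 (-2.10 to -0.17). Tissue isoforms were scarce. Cox6a2 had 14, 17, 9 and 14 counts, Ndufa4l2 had 4, 0, 1 and 8, and Cox8b had 0, 0, 1 and 1, while Cox7b2 and Cox8c had none.

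Some other nuclear-encoded genes share sequence with copies or overlap neighbours, and whether their reads were shared was not tested. Of the 50-base words of Atp5l, a membrane subunit of ATP synthase, 84.9% occur in other transcripts, and its log2 fold changes were -0.14, -0.12 and 0.02 in TP5, sFD17 and FR17. The share was 50.3% for Atp5o, 47.9% for Atp5h, 39.7% for Ndufs3 and 38.7% for Atp5f1. Exons of Ndufb6 overlap those of Smim27 on the opposite strand over 39.0% of their length, and those of Ndufa13 overlap Tssk6 over 30.0%. Without the genes that share over 10% of their words, again a choice made after seeing the data, the nuclear-encoded median had the same direction in each of the 6 comparisons.

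The promoters of the nuclear-encoded genes were also searched for sequence motifs. RefSeq promoters on GRCm38.p6, from 250 bases before to 50 after the transcript start, matched 67 of the 83 genes with 71 promoters. The 67 count both rows of Atp5o, which were given the same promoter. The core of NRF1, a factor known for activating respiratory chain genes, was searched as GCATGCGC on both strands and stood in 10 of the 71 (14.1%), against 2.71% of all 32851 promoters. The ETS core CCGGAAG, the kind bound by the GABP factor, stood in 16 (22.5%) against 8.86%, and the YY1 core AAGATGGC in 9 (12.7%) against 2.75%. The CREB core TGACGTCA stood in 4 (5.63%) against 1.79%, and the TATA box TATAAA in 8 (11.3%) against 13.6%. All promoters include those of non-coding genes, and a match is only a match of letters. Genes that differed between libraries were not compared with those that did not, so a link of the motifs to those differences was not tested.

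Promoters of Ndufa11, the highest nuclear-encoded gene in TP5, and Cox6a1, among the most abundant, are shown as examples that hold the NRF1 core. Capitals mark the NRF1 core and, in Cox6a1 alone, the ETS core. Where the NRF1 core overlaps its own reverse complement, the capitals run over both. The Ndufa11 sequence is chr17:56717512-56717811 on the plus strand, and that of Cox6a1 is chr5:115348909-115349208 on the minus strand.
Ndufa11: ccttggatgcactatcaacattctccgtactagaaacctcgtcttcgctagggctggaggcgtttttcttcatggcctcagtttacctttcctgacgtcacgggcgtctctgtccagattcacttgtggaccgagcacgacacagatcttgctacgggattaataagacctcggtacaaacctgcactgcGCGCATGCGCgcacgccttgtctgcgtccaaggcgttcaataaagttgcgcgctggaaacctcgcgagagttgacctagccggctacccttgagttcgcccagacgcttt
Cox6a1: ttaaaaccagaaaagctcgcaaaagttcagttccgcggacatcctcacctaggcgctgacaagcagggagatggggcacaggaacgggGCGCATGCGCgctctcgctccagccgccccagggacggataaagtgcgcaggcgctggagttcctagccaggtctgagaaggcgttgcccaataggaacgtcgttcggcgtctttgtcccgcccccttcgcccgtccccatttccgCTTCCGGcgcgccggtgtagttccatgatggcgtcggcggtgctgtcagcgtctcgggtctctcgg

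The peptide libraries were compared with each other at the same dose and day, without a test since each is 1 library. Between sFD17 and TP5 the mitochondrial-encoded genes gave the clearest separation, with a median log2 fold change of -0.95 (-0.998 without mt-Nd4l) and 10 of the 11 past 1.5-fold lower in sFD17. mt-Nd6 was at -1.297 (-1.44 to -1.16) and mt-Nd1 at -1.16 (-1.22 to -1.10), and mt-Co3 was the gene not past 1.5-fold, at -0.17. The nuclear-encoded median was -0.36, with 9 of 78 past 1.5-fold lower and none higher, among them Cox6b2 at -2.14, Ndufa5 at -1.08 and Uqcrb at -1.002. The background was 15.4% higher and 16.4% lower, so the nuclear-encoded share of 11.5% lay under it and the mitochondrial-encoded share of 90.9% far over it. That background was not matched for counts. The 10 mitochondrial-encoded genes need not vary separately, and mt-Co2, mt-Atp6 and mt-Nd3 among them have uncertain counts. With library totals the nuclear-encoded median was -0.62 and 46 of 78 (59.0%) were past 1.5-fold lower, over the background of 29.7% lower (9.40% higher), so that the nuclear-encoded relation turned, while the mitochondrial-encoded share was again 90.9%.

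FR17 carries TP5 in the place of the scrambled sequence of sFD17, and the values of FR17 against sFD17 were higher for both genomes. The mitochondrial-encoded median was 0.73 (0.76 without mt-Nd4l), with 8 of 11 past 1.5-fold, and the nuclear-encoded median 0.47, with 77 of 78 higher and 23 past 1.5-fold, or 76 of 76 and 22 without Cox6a2 and Cox7a1. None was past 1.5-fold lower, against 24.7% of all genes higher and 21.3% lower, and the median of all genes was 0.07. Scaling moved these values, since with library totals the medians were 1.18 and 0.93 against 0.52 over all genes, and 85 of 90 (94.4%) were past 1.5-fold higher in place of 31, against 46.3% of all genes higher and 10.2% lower. Without the filter on low counts 49 were past it, again with no share of all genes beside it. Cox6b2 was at 2.13 (1.44 to 3.16), Ndufa5 at 1.5 (1.11 to 1.96), Uqcrb at 1.37 (1.14 to 1.63), mt-Nd6 at 1.26 (1.12 to 1.40) and Ndufa4 at 1.08 (0.88 to 1.298). Complex II remained nearest to the median of all genes, at 0.11.

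FR17 against TP5 set the genomes apart in direction. The mitochondrial-encoded median was -0.29, with 9 of 11 lower in FR17, while the nuclear-encoded median was 0.12, with 59 of 78 higher. With library totals the medians were -0.10, with 7 of 11 lower, and 0.32, with 77 of 78 higher, against 0.17 over all genes. mt-Nd5 was at -0.48 (-0.54 to -0.43), mt-Cytb at -0.33 (-0.36 to -0.30) and mt-Co1 at -0.12 (-0.13 to -0.10). The 2 higher mitochondrial-encoded genes were mt-Co2 and mt-Co3. Only Atp5s was past 1.5-fold, at 1.27 (0.52 to 2.32), with none lower, where 14.4% of all genes were higher and 10.1% lower. Library totals gave 7 (7.78%) higher, against 20.0% of all genes higher and 5.75% lower, the absence of a filter on low counts 4, and a prior count of 0.5 gave 2. The ratio of mitochondrial-encoded over nuclear-encoded counts was 0.811 times as high in FR17 as in TP5, and 1.20 times as high in FR17 as in sFD17.

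Other genes of the mitochondrion were described from 9 lists, chosen with earlier results of these data known. Subunits and carriers outside the naming patterns, namely Cox4i1, Cox4i2, Cyc1, Cycs and Ndufab1, had medians of 0.02, -0.25 and 0.31 in TP5, sFD17 and FR17. Cycs, cytochrome c, was the highest of them in TP5, at 0.53 (0.36 to 0.70), with 492, 737, 345 and 839 counts. The 77 genes of the mitochondrial ribosome, which translates the mitochondrial-encoded mRNAs, had medians of 0.07, -0.36 and 0.28, with 16 past 1.5-fold lower in sFD17 (20.8%, against 15.6% of all genes) and 7 past it higher in FR17 (9.09%, against 11.0%). These medians are on the same side of 0 as those of the nuclear-encoded subunits in all 3 libraries.

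The 43 assembly factors had medians of -0.01, -0.23 and 0.21, the value in TP5 turning to 0.05 with library totals. Cox17, the copper chaperone of complex IV, had 480 counts in Ctrl, 207 in TP5, 317 in sFD17 and 354 in FR17, with -1.26 (-1.51 to -1.03) in TP5 and -0.88 (-1.08 to -0.68) in FR17. It was thus highest in Ctrl. Tmem126b, an assembly factor of complex I, had 83, 84, 24 and 148 counts and -1.38 (-2.15 to -0.76) in sFD17, and Ndufaf2, also for complex I, was at 0.93 in TP5 and 0.91 in FR17 from 30, 61, 21 and 79 counts.

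The 30 genes for copying, transcribing and handling the mitochondrial genome and its RNA had medians of 0.06, -0.38 and 0.16. Fastkd2, an RNA-binding protein of the mitochondrion, had 83, 68, 24 and 178 counts, with -1.38 (-2.15 to -0.76) in sFD17 and 0.65 (0.27 to 1.05) in FR17. Tfam, which packages the mitochondrial genome, had 147, 158, 113 and 303 counts and 0.05, -0.02 and 0.60. Polrmt, the mitochondrial RNA polymerase, had 159, 163, 105 and 224 counts and -0.02, -0.24 and 0.05.

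The 11 biogenesis regulators had medians of -0.09, 0.15 and -0.27, and library totals turned the one in sFD17 to -0.07. They went both ways, with 5 higher and 6 lower in TP5, 8 and 3 in sFD17, and 4 and 7 in FR17. Ppargc1b, a coactivator of mitochondrial genes, had 70, 103, 36 and 100 counts and 0.49, -0.58 and 0.07, on the same side of Ctrl as the nuclear-encoded subunits. Nrf1 had 704, 686, 638 and 796 counts and -0.09, 0.21 and -0.27. Gabpb1, a GABP subunit, was the lowest in FR17, at -0.56 (-0.71 to -0.42), and Pprc1, another coactivator, the highest, at 0.31 (0.10 to 0.52). The 16 genes of the tricarboxylic acid cycle had medians of 0.07, -0.23 and 0.06, with Suclg2, a subunit of succinyl-CoA synthetase, at -1.02 (-1.49 to -0.61) in sFD17. The 13 inner membrane carriers were at 0.02, -0.01 and -0.09, of which DESeq2 size factors turned the value in sFD17 to 0.03 and library totals that in FR17 to 0.16. The medians were 0.05, -0.27 and 0.15 for the 22 genes of protein import, and 0.19, -0.34 and 0.28 for the 97 genes found by the naming pattern of the cytosolic ribosome, which also catches Rps6k kinases. The lower values in sFD17 and higher ones in FR17 were thus seen in ribosomal genes of the cytosol as well as in subunits of oxidative phosphorylation.

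**Figure D4:**
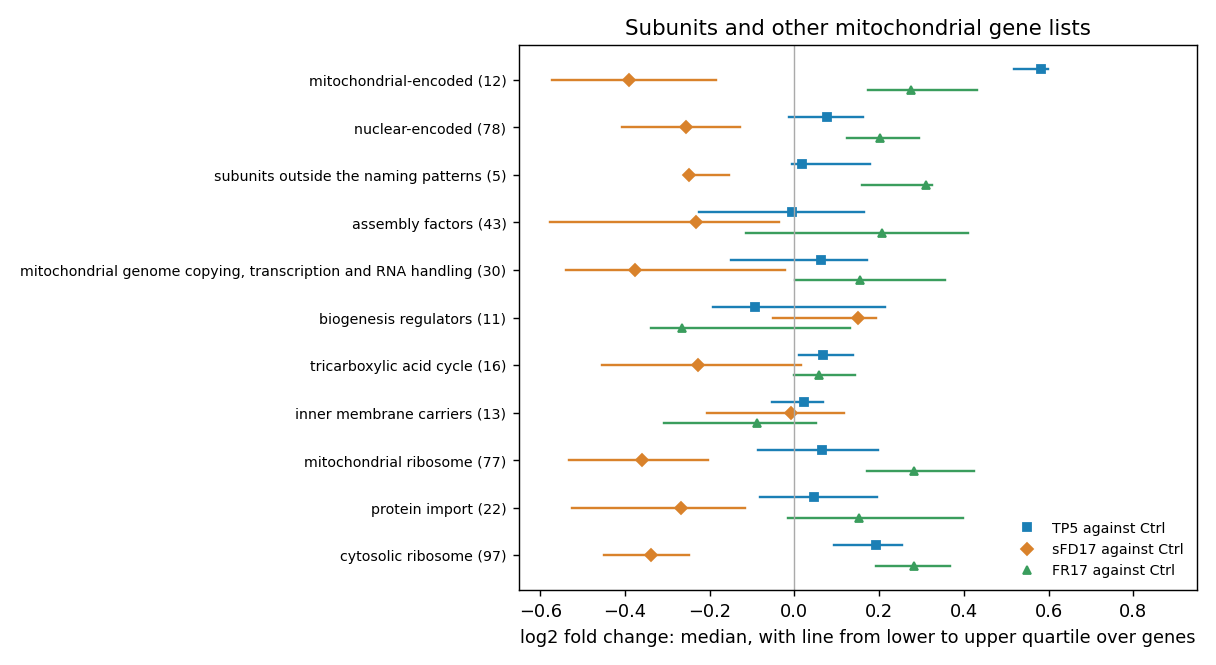
Symbols give the median log2 fold change against Ctrl for the mitochondrial-encoded and nuclear-encoded genes and for the 9 lists, with the number of genes tested in parentheses and lines from the lower to the upper quartile over genes. The mitochondrial-encoded genes in TP5, at 0.58, lie to the right of each list's median, and the biogenesis regulators are the list whose median is above 0 in sFD17, at 0.15, which library totals turn to -0.07, and furthest below 0 in FR17, at -0.27.

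Markers of other cells also differed between the libraries. The summed level of the 16 macrophage markers, each of them tested and none at 0, was 10270 CPM in Ctrl, 7746 in TP5, 3846 in sFD17 and 12770 in FR17. It was lowest in sFD17 and highest in FR17, as the nuclear-encoded genes were, but under Ctrl in TP5. The 16 neutrophil markers summed to 38320, 41010, 49530 and 33060 CPM, highest in sFD17 and lowest in FR17. With library totals they were 37780, 41910, 42060 and 38640 CPM, with Ctrl lowest. Gene by gene they split, with 9 higher and 7 lower in TP5, 15 and 1 in sFD17, and 5 and 11 in FR17. Named after their values were seen, the granule protein genes Camp, Ltf and Ngp were at 0.89, 0.82 and 0.78 in TP5, and the receptor genes Csf3r and Cxcr2 at -0.47 and -0.46. Camp, Ltf and Ngp were above Ctrl also in sFD17, at 0.50, 0.58 and 0.52, and in FR17, at 0.53, 0.435 and 0.31. Csf3r and Cxcr2 were at 0.26 and 0.33 in sFD17 and at -1.04 and -0.88 in FR17.

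Relative to Ctrl, the summed levels of the 10 NK cell markers stood at 0.870, 0.853 and 2.81 times in TP5, sFD17 and FR17, the 10 T cell markers at 0.976, 0.625 and 1.72, and the 6 of 8 red cell markers that were tested at 0.462, 0.617 and 1.57. Without the most abundant gene of each list, Gzma and Cd4, the values in TP5 turned to 1.01 for NK cells and 1.21 for T cells. With library totals the T cell value in TP5 was 1.01. The 7 of 8 platelet markers that were tested summed to 0.448, 0.312 and 1.29 times Ctrl, with Gp1bb at 0, but most of that sum was Pf4, with 1733, 653, 247 and 2954 counts. Of the 7, 5 were higher in TP5 and 6 in sFD17, and without Pf4 the sums were 1.11, 1.32 and 1.59 times Ctrl. The 10 dendritic cell markers, none at 0, summed to 2848, 3802, 2289 and 3317 CPM, or 1.33, 0.804 and 1.16 times Ctrl, where the mitochondrial-encoded genes summed to 1.33, 0.726 and 1.14 times. H2-Ab1, a class II antigen presentation gene, gave 76.1% to 84.1% of the counts of that list, and without it the sums were 1.38, 1.10 and 1.05 times Ctrl, so the direction in sFD17 turned. Gene by gene, 9 of the 10 were higher in TP5, 6 in sFD17 and 8 in FR17, with medians of 0.65, 0.16 and 0.38. The lists of monocytes, B cells, lung epithelium, endothelium, fibroblasts, muscle and melanoma lay between 0.625 and 1.99, the latter for lung epithelium in sFD17, where Scgb1a1 gave 87.9% of the counts and the value without it was 1.26. The monocyte value in sFD17 turned from 1.10 to 0.854 without Nr4a1. With library totals it was 0.951, the monocyte values in TP5 and FR17 turned from 0.998 and 0.882 to 1.03 and 1.05, and those of B cells and endothelium in sFD17 from 1.09 and 1.10 to 0.94 and 0.95. Of the melanoma markers, Tyr and Tyrp1 were at 0. The part of these cells in the differences of the respiratory genes was not tested.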

How the data were processed

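The authors deposited raw counts of reads per gene for 4 mRNA libraries of sorted lung MDSCs, without normalization, with gene coordinates and a gene length. According to the study's methods, TRIzol was used for RNA and the libraries came from the NEBNext Ultra Directional kit. The submitters' processing notes name HISAT2 2.0.5, StringTie 1.3.3b, featureCounts 1.5.0-p3, edgeR 3.18.1 and GRCm38.p6. The settings for strand and for reads that match several places are not given in the sources used here. All 4 count columns were matched to samples by group name. GENCODE M21 holds 54495 of the identifiers, 53585 of them at the same coordinates, and the deposited length of 90 of the 96 genes equals the union of M21 exons.

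For the 16369 genes that reached 10 counts in 1 or more libraries, log2 CPM was computed in edgeR (TMM scaling, prior count 2), and log2 fold changes are differences between libraries. With 1 library per group no test was run. Intervals are exact binomial (Clopper-Pearson) for a pair of counts and Wilson for shares, at 95%, and a count of 0 is limited by a floor of 3 counts. The scaling code was run on simulated data with 200 changed genes. Those simulated libraries were drawn from a common profile, whereas the real TMM factors ran from 0.849 in sFD17 to 1.17 in FR17. That run therefore cannot decide between TMM and library totals. Genes were named by rule: all mitochondrial-encoded and Sdh genes, the most abundant of each complex, those past 1.5-fold in any comparison with at least 50 counts, tissue isoforms, and the extremes of each complex and list. Not every gene that the rule selects is printed. Members, lists and the naming rule were chosen with earlier results of these data known. R 4.3.3, edgeR 4.0.16, DESeq2 1.42.0, Python 3.11.15, pandas 2.3.3, numpy 2.4.6 and scipy 1.17.1 were used. The alternatives were DESeq2 size factors, library totals, TMM without the mitochondrial-encoded genes, other count filters, a prior count of 0.5, a 2-fold rule, and leaving out the most abundant genes. Others, named as such, were added after seeing the data.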

Additional observations from a re-analysis of the deposited data

Results flagged for a closer look

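Of the mitochondrial RNAs that encode no protein, which lie outside the comparisons above, 5 had more than 3 counts in each library. Each of the 5 was above Ctrl in raw counts in at least 1 peptide library. mt-Rnr2, the large ribosomal RNA of the mitochondrion, had 5893 counts in Ctrl, 6336 in TP5, 3921 in sFD17 and 6439 in FR17. mt-Rnr1, the small ribosomal RNA, had 1779, 2449, 1172 and 2688 in the same order. Among transfer RNAs, mt-Tp had 123, 159, 54 and 137, mt-Tn 18, 30, 13 and 33, and mt-Tc 7, 18, 8 and 18. On the log2 scale with TMM, mt-Rnr2 was at 0.05, -0.23 and -0.32 and mt-Rnr1 at 0.41, -0.25 and 0.15 in TP5, sFD17 and FR17 against Ctrl. mt-Tp was at 0.31, -0.81 and -0.28 on this scale, mt-Tn at 0.63, -0.10 and 0.40, and mt-Tc at 1.11, 0.45 and 0.77, so mt-Rnr2 and mt-Tp were below Ctrl in FR17 once scaled. The values of mt-Tn and mt-Tc rest on few counts, and no counting interval is given for these 5 RNAs.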

How the results depend on the processing

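No paired analysis was possible because each group has 1 library, and no library could be left out. No mitochondrial-encoded or nuclear-encoded median, against Ctrl or between peptides, turned direction under any alternative run. DESeq2 size factors, TMM without the mitochondrial-encoded genes, at least 10 counts in every library, at least 100 counts for the medians of complexes, and leaving out the genes with over 10% shared words moved no median run under them by more than the typical (median) half-width of its genes' 95% counting intervals, and no count by over 1.5 times, although a median near 0 can change sign within that width. Scaling was also varied for the complexes and lists, a choice made after seeing the data. Library totals moved the nuclear-encoded medians in sFD17 to -0.44 in complex II, -0.504 in III, -0.45 in IV and -0.52 in V, and in FR17 to 0.48 in I, 0.22 in II, 0.498 in III, 0.40 in IV and 0.49 in V. The medians that turned direction were complex II (0.22) and the carriers (0.16) in FR17, the biogenesis regulators in sFD17 (-0.07) and the assembly factors in TP5 (0.05), and with DESeq2 size factors the carriers in sFD17 (0.03). Without Pf4, again chosen after seeing the data, the platelet marker sums turned to 1.11 (TP5) and 1.32 (sFD17) times Ctrl, without H2-Ab1 the dendritic cell sum in sFD17 to 1.10, without Cd4 and Gzma the T and NK cell sums in TP5 to 1.21 and 1.01, and without Nr4a1 the monocyte sum in sFD17 to 0.854. Library totals turned the neutrophil sum in FR17 to 1.02, and other marker sums named in the text. Library totals alone moved the mitochondrial-encoded medians to -0.61 in sFD17, 0.52 in FR17, -0.10 for FR17 against TP5, -1.20 for sFD17 against TP5 and 1.18 for FR17 against sFD17, the nuclear-encoded ones to -0.47, 0.45, 0.32, -0.62 and 0.93, and the genes past 1.5-fold to 31, 16, 7, 57 and 85. Without a filter on low counts the mitochondrial-encoded medians were -0.22 for FR17 against TP5 and 0.83 for FR17 against sFD17, and 14 genes were past 1.5-fold in sFD17, 4 in FR17 against TP5 and 49 in FR17 against sFD17. A prior count of 0.5 gave 2 in FR17 against TP5. Past 2-fold were 1 gene in TP5, 2 in sFD17, 0 in FR17, 8 in sFD17 against TP5 and 5 in FR17 against sFD17. Without the 6 genes from mt-Co2 to mt-Nd4l the mitochondrial-encoded medians were -0.57 in sFD17 and -1.14 for sFD17 against TP5. Without the 50 most abundant nuclear genes in the total, the mitochondrial-encoded share in Ctrl, TP5, sFD17 and FR17 was 0.507%, 0.690%, 0.322% and 0.673%, and without mt-Co1 it was 0.181%, 0.278%, 0.106% and 0.254%. The ratio without mt-Co1 and Atp5b was 0.534, 0.748, 0.425 and 0.562. These shifts follow from what each alternative takes out or rescales. With 1 library per group, differences between mice cannot be told from those between peptides, and genes with few counts, such as mt-Nd4l, Cox7a1 and Atp5s, have wide counting intervals.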
